A study of Mus musculus with 6 samples.

Results

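A set of 8 G protein-coupled receptor genes of the oligodendrocyte lineage was followed in the enhancer-gene predictions of Ctr-OPCs and IFN-γ-OPCs: *Gpr17*, *Gpr37*, *Gpr37l1*, *Adgrg1*, *Lpar1*, *S1pr1*, *P2ry1* and *Ednrb*. They were chosen by name, as receptors known from oligodendroglia, and make up 8 of the 32049 target genes in either table. Of these, 7 (all but *Adgrg1*) were listed in Ctr-OPCs and all 8 in IFN-γ-OPCs. They held 30 of 66637 element-gene pairs in Ctr-OPCs and 33 of 71478 in IFN-γ-OPCs.

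The cells were cultured oligodendrocyte precursor cells (OPCs) taken from the brains of mice, for which the labels give the strain C57BL/6j and the genotype Sox10-Cre/RCE, a reporter that marks cells of the Sox10 lineage with EGFP. The study's methods call the line Sox10:Cre-RCE:LoxP(EGFP) and put its reporter parent on a mixed C57BL/6xCD1 background, so the strain label does not describe the whole background. Per those methods, brains of several pups were pooled for a culture and the cells were sorted on the reporter or on CD140a. Per the labels, both groups grew in proliferation medium with 20 ng/mL bFGF and 20 ng/mL PDGF-AA (the study's methods give another bFGF dose), and IFN-γ-OPCs received 100 ng/mL IFN-γ from 24 h after passaging. H3K27ac-HiChIP, which captures chromatin contacts of regions carrying this histone mark, was done on 3 libraries per group, but each group has only 1 table of pooled libraries. No value below therefore has a replicate error, no p-value was computed, and the read depth behind the tables is unknown.

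G protein-coupled receptors cross the membrane and pass the binding of a ligand outside the cell to G proteins inside it, which then act on adenylate cyclases, phospholipases and ion channels. In the oligodendrocyte lineage, such receptors are known to time the steps from a dividing precursor to a myelinating cell: GPR17 and GPR37 hold back maturation, ADGRG1 keeps precursors dividing, and endothelin, purine and lysophospholipid receptors adjust migration and differentiation. IFN-γ is a cytokine of activated lymphocytes that signals through STAT and IRF transcription factors.

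The activity-by-contact (ABC) model gives each element near a gene a score, the element's activity (from accessibility and H3K27ac) times its contact with the promoter, divided by the sum of these products over all elements of the gene. That sum is called the gene total here. A score is thus a share of the gene total, contact is on the model's own relative scale, and a pair with a score above 0.05 is called a connection. The tables start at a score of 0.02 and at a promoter activity quantile of 0.4.

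Most receptor promoters ranked above the median of the listed genes. Over the 7 receptors listed in both tables, the median promoter activity percentile was 84.1 in Ctr-OPCs and 81.9 with IFN-γ, against 68.8 and 68.6 over all listed genes. *Gpr17* was the highest at 99.5 and 98.6, while *Lpar1*, the main lysophosphatidic acid receptor of maturing oligodendrocytes, was the lowest of those listed in Ctr-OPCs at 49.6 and stood at 63.3 with IFN-γ. By the same measure, all 7 OPC markers were listed in both tables, with promoter percentiles from 85.1 to 98.2 in Ctr-OPCs and from 81.5 to 99.4 in IFN-γ-OPCs. Of the 6 microglia markers, 3 were listed in Ctr-OPCs, at 47.3 to 78.2, and 5 with IFN-γ, at 47.1 to 82.5. Of the 5 astrocyte markers 4 were listed in each, at 59.0 to 79.9 and 45.1 to 78.3. All 5 neuron markers were listed in both tables, at 62.7 to 87.0 and 50.6 to 86.8. Their range overlapped that of the OPC markers, as did that of the microglia markers with IFN-γ. Of the 6 markers of maturing and mature oligodendrocytes, 6 were listed in Ctr-OPCs, at 51.7 to 79.3, and 5 with IFN-γ, at 63.3 to 77.3. Of the 4 endothelial markers 1 was listed in Ctr-OPCs, at 72.8, and 3 with IFN-γ, at 41.5 to 64.7. The part of other cells in the receptor values was not tested.

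Most of the listed receptors had more elements than the average gene, and the median activity of these elements was high. In Ctr-OPCs 5 of 7 and in IFN-γ-OPCs 6 of 8 had over 3 pairs, as had 23.5% and 25.6% of all listed genes, while *Lpar1* had 2 and 1. A listed receptor gene had a mean of 4.29 pairs in Ctr-OPCs and 4.12 with IFN-γ, while the mean over protein-coding genes was 2.30 and 2.41. The median activity of the receptor elements was 1.61 and 1.55, which exceeded 80.4% and 81.2% of all elements. Of the receptor elements, 24 of 30 and 24 of 33 were also listed for another gene, so most of them were shared with neighbouring genes. Over all elements, each counted once, 40.1% and 39.7% were listed for more than 1 gene. These shares are not like for like, because an element with many targets is reached more often through a gene. All elements of *S1pr1* and *P2ry1* were also listed for *Gm9889* and *Gm37035*, respectively.

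The distances differed between the receptors and between the tables. In Ctr-OPCs the median distance from the transcription start site (TSS) was 54.6 kb, against 15.1 kb over all pairs, and 12 of the 30 lay over 100 kb away, against 25.2% of all pairs. Of these 12, 5 belonged to *P2ry1*, 5 to *S1pr1* and 1 each to *Lpar1* and *Ednrb*, so the far pairs were mainly those of 2 genes. In 10 of the 12 the contact was above the power-law expectation for the distance, against 59.2% of all pairs over 100 kb. The *P2ry1* elements in *Mbnl1* share a contact value (0.00376), as do those in *Gm38326* (0.00661). The 10 pairs are therefore not all separate contact measurements. In IFN-γ-OPCs the median distance was 13.1 kb, against 15.8 kb over all pairs, and 6 of 33 pairs lay over 100 kb away, against 25.1% of all pairs. Contact was above the power-law expectation in 4 of these 6, against 69.3% of all pairs over 100 kb. The higher share of the far receptor pairs in Ctr-OPCs was thus not seen with IFN-γ, but this difference between the tables was not tested. *Adgrg1*, listed only in that table, added 8 pairs within 50 kb.

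**Figure D1:**
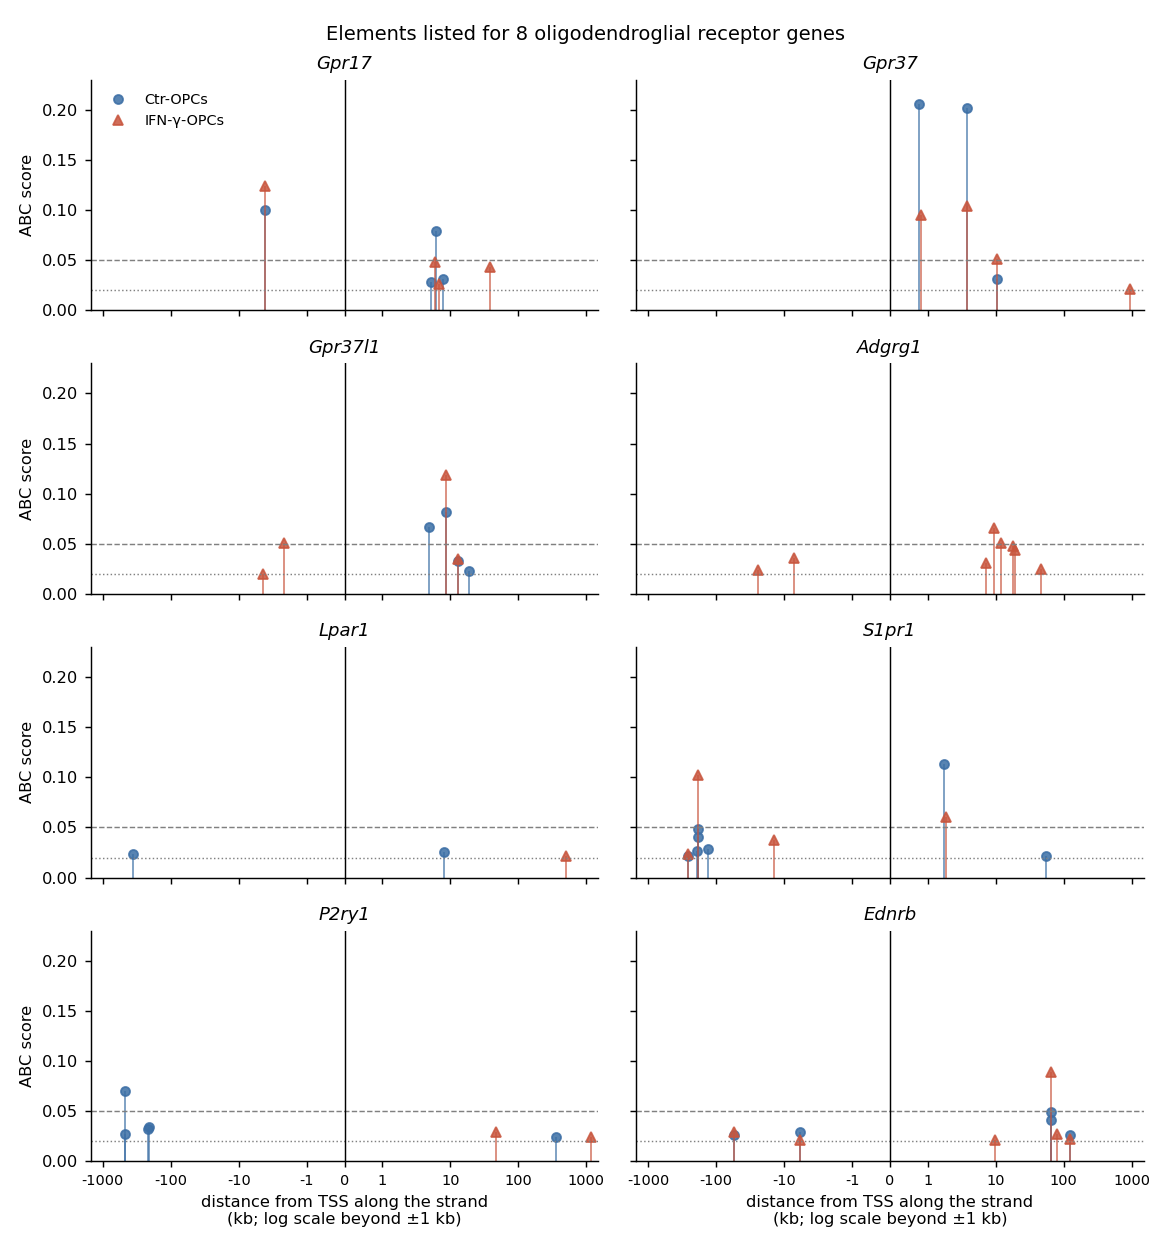
ABC score (y axis) of every listed element against its distance from the TSS along the gene's strand (x axis, kb, log scale beyond 1 kb on either side), for each receptor gene in Ctr-OPCs (blue circles) and IFN-γ-OPCs (red triangles). The dashed line is the connection cut-off of 0.05 and the dotted line the lowest deposited score of 0.02. The highest scores are those of the 2 near elements of *Gpr37* in Ctr-OPCs.

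At the cut-off of 0.05 the receptor genes had 8 connections, in 5 genes, in Ctr-OPCs and 11, in 6 genes, in IFN-γ-OPCs. The number was higher with IFN-γ in 4 genes: *Adgrg1* went from 0 to 2, *Gpr37* from 2 to 3, *S1pr1* from 1 to 2 and *Ednrb* from 0 to 1. It was lower in *Gpr17*, from 2 to 1, and in *P2ry1*, from 1 to 0. *Gpr37l1* had 2 in each group and *Lpar1* had none. At a cut-off of 0.1 the counts of *Adgrg1*, *S1pr1*, *Ednrb* and *P2ry1* were level between the groups. There *Gpr17* and *Gpr37l1* had more with IFN-γ and *Gpr37* had fewer, so the directions of *Gpr17* and *Gpr37* turned. With the power-law score, which takes contact from distance alone, the counts of *Gpr37*, *S1pr1*, *Gpr17* and *P2ry1* were level. Over all 12779 genes with a connection in either table, 37.4% had more and 32.5% had fewer with IFN-γ, beside 4 and 2 of the 7 receptor genes with a connection. One of the 4, *Adgrg1*, was listed with IFN-γ alone. Of the connections, 5 of 8 in Ctr-OPCs (62.5%) overlapped one of the same gene in IFN-γ-OPCs, and 5 of 11 (45.5%) the other way round. Over all genes these shares were 49.5% and 46.3%.

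The counts also depended on how elements are delimited in each table. When elements of a gene less than 1 kb apart were joined over both tables and their scores added, an alternative chosen after the elements had been seen, the receptors had 42 regions, 14 of them with elements in both tables. Of these regions 10 were above 0.05 in Ctr-OPCs and 13 with IFN-γ, and 8 were above it in both. Then 2 genes had more regions above 0.05 with IFN-γ (*Adgrg1*, 0 to 3, and *Gpr37*, 2 to 3), 1 had fewer (*P2ry1*, 1 to 0) and 5 had the same number. Over all genes with such a region, 36.6% had more and 31.1% had fewer. The counts of *Gpr17*, *S1pr1* and *Ednrb* were thus level after joining, as were those of 12.1% of all genes whose number of connections differed. A level count is not a level score: the joined *Gpr17* region summed to 0.138 in Ctr-OPCs and 0.0743 with IFN-γ.

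**Figure D2:**
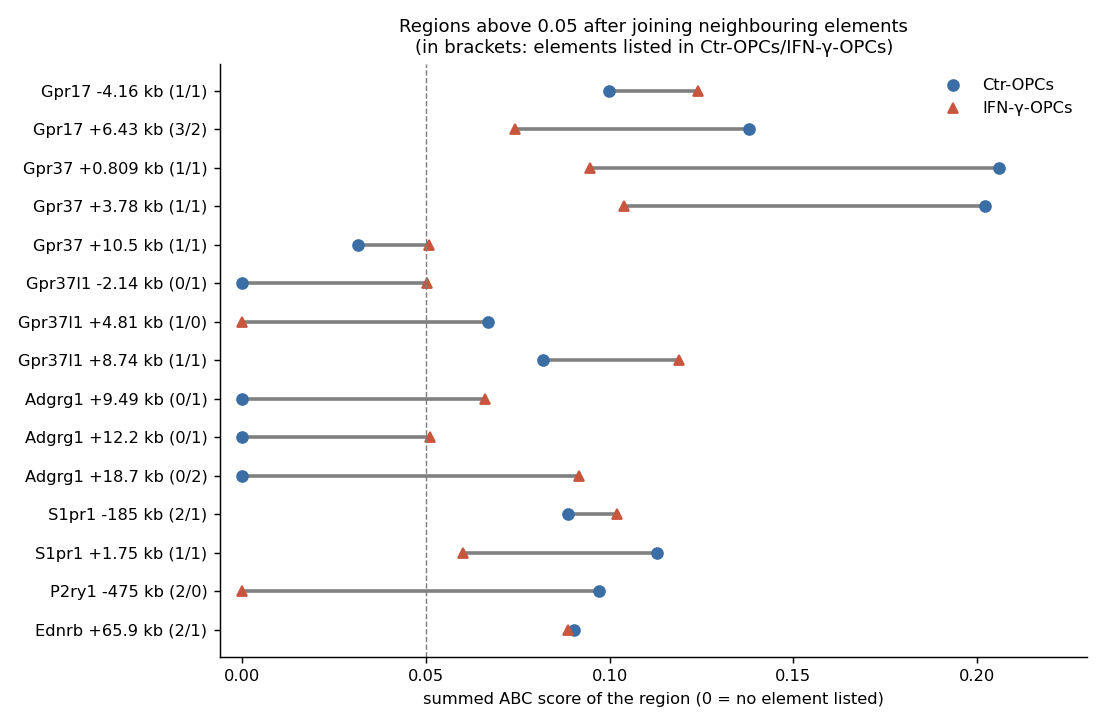
Summed ABC score (x axis) in Ctr-OPCs (blue circles) and IFN-γ-OPCs (red triangles) of every receptor region that was above 0.05 (dashed line) in either group after neighbouring elements were joined; labels give the gene, the distance of the region's middle from the TSS and the number of elements listed in each group. A value of 0 means that no element was listed. The *Ednrb* region holds 2 elements in Ctr-OPCs and 1 with IFN-γ, with sums of 0.0904 and 0.0886.

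The gene totals differed little. Of the 7 receptors with a total in both tables, 5 were lower and 2 higher in IFN-γ-OPCs, and none was past 1.5-fold, which 0.615% of all genes exceeded upwards and 0.118% downwards. Their median log2 ratio was -0.17, against -0.07 over all 20321 genes, of which 64.3% were lower. The middle 90% of all genes spanned -0.29 to 0.30 on that log2 scale. *Gpr37* (-0.38) and *S1pr1* (-0.32) lay below it, and the other 5 lay within it, with *Ednrb* at -0.20, *Gpr37l1* at -0.17, *Lpar1* at -0.02, *Gpr17* at 0.04 and *P2ry1* at 0.06.

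**Figure D3:**
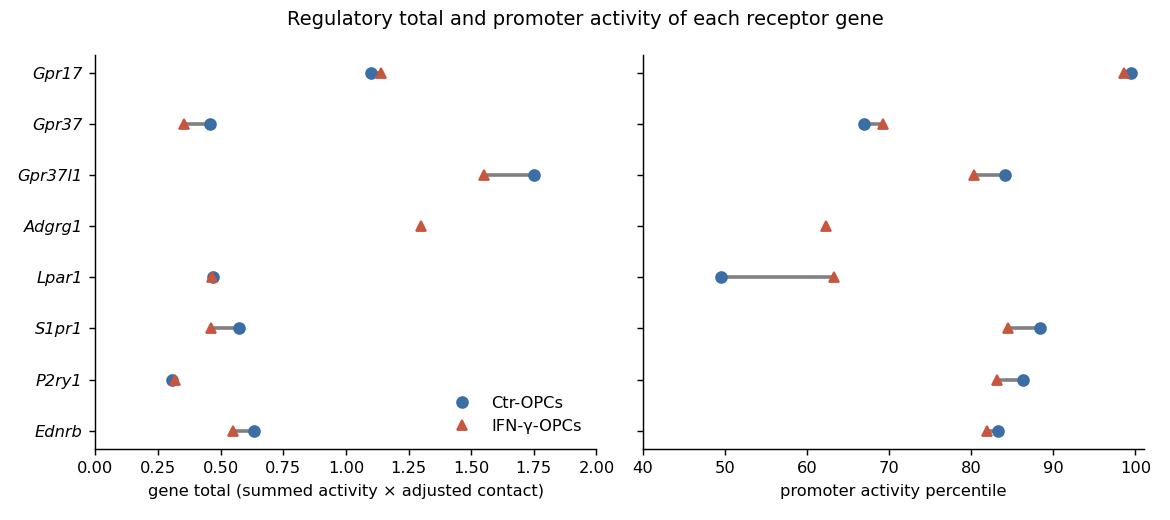
Gene total (left, summed activity times adjusted contact, x axis from 0) and promoter activity percentile (right, x axis from 40) of each receptor gene in Ctr-OPCs (blue circles) and IFN-γ-OPCs (red triangles), 1 pooled value per group. *Adgrg1* has no value in Ctr-OPCs. *Gpr37* shows the lowest log2 ratio of totals, from 0.459 to 0.352.

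For 5 receptors the sequence around the middle of a leading element is printed, to show the DNA behind the scores described further on. The element taken was the highest-scoring one of the gene whose middle lies outside an annotated UTR. For *S1pr1* this is the near element and not the distal one in *Dph5*. Each is 200 bases of the forward strand of GRCm38 (mm10), 5′ to 3′, from the middle of the element or, where both tables list it, of the shared stretch. Capitals mark matches, on either strand, to 6 short motifs: ACAAAG (SOX), CAGCTG (E-box), TTCNNNGAA (STAT), GAAANNGAA (IRF), TGANTCA (AP-1) and TTGGCA (NFI half-site). None of the matches printed overlaps another. The first segment lies in the *Gpr37* intron, the second between *Gpr37l1* and *Arl8a*, the third in the *S1pr1* intron, the fourth in an *Mbnl1* intron and the fifth in the intergenic stretch downstream of *Ednrb*.
Gpr37, chr6:25686848-25687047: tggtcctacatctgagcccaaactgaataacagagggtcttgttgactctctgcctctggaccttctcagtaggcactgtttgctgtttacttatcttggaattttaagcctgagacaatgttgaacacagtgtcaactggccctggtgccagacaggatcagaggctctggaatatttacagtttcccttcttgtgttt
Gpr37l1, chr1:135158839-135159038: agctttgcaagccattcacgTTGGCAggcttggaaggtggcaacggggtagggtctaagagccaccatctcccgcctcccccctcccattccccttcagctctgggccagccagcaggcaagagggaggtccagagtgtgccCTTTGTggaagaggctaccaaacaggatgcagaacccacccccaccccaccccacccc
S1pr1, chr3:115713136-115713335: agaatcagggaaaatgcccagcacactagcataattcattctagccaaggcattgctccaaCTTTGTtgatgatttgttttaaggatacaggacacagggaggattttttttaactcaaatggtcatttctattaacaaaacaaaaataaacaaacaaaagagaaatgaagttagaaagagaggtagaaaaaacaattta
P2ry1, chr3:60527833-60528032: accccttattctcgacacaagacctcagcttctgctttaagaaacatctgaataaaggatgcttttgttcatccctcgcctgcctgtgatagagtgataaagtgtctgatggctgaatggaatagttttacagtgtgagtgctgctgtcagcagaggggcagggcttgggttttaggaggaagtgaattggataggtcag
Ednrb, chr14:103778102-103778301: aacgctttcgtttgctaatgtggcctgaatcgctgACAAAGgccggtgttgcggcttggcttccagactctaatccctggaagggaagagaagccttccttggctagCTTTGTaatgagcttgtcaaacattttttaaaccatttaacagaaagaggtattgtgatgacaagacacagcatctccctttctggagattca

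The *Ednrb* segment held 2 SOX matches, at positions 36 to 41 and 108 to 113 of the segment, and the *S1pr1* segment held 1. The *Gpr37l1* segment held 1 SOX and 1 NFI half-site match. The *Gpr37* and *P2ry1* segments held none of the 6, which says only that these letters are absent from these windows. The corresponding windows of *Lpar1*, which had no connection, and *Adgrg1*, listed with IFN-γ alone, are not printed; they held 1 E-box and 1 AP-1 match. No *Gpr17* segment is shown, but its elements are among those counted next. Over the middle 200 bases of all elements, the SOX motif was present in 13 of 30 receptor elements in Ctr-OPCs (43.3%) and 13 of 33 in IFN-γ-OPCs (39.4%), against 19.7% and 21.5% of all elements. The STAT motif was present in 3 of 30 and 3 of 33, and the IRF motif in 2 of 30 and 1 of 33, against 5.62% and 6.08%, and 5.28% and 7.57%, of all elements. The E-box was present in 7 and 8 receptor elements (19.6% and 19.0% of all elements), the AP-1 motif in 0 and 3 (6.17% and 7.53%) and the NFI half-site in 5 and 7 (14.2% and 14.4%). SOX was the most frequent of the 6 in the receptor elements and among all elements alike. Elements listed in both tables carry nearly the same bases, so the 2 counts are not independent.

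*Gpr37* encodes an orphan receptor that rises late in the lineage and restrains myelination. The 3 elements listed for it in Ctr-OPCs all lay within 11 kb of the TSS, in an annotated exon and in introns, and together made up 43.9% of the gene total. The intronic element at chr6:25686689-25687188, 3.79 kb downstream of the TSS, had an activity of 1.52 in Ctr-OPCs and 0.953 with IFN-γ, an adjusted contact of 0.0610 and 0.0385 and a score of 0.202 and 0.104. The exonic element at chr6:25689696-25690195, 0.784 kb from the TSS, had an activity of 1.55 and 0.864 and a score of 0.206 and 0.0946. Both had lower activity and contact with IFN-γ, and they share a contact value because contact is given in 5 kb bins.

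The third *Gpr37* element, at chr6:25679971-25680470 in an intron, went the other way. Its activity was lower with IFN-γ, 0.527 against 0.772, but its adjusted contact was 0.0340 against 0.0187. Activity times contact was 0.0179 against 0.0144, and the gene total was lower, 0.352 against 0.459. The score of 0.0509 against 0.0315 only just made it a connection. So the gain of 1 connection in *Gpr37* stands beside lower values of its 2 leading elements, and at a cut-off of 0.1 the gene had fewer connections with IFN-γ. The input of all listed elements was 0.201 in Ctr-OPCs and 0.0953 with IFN-γ, 2.11-fold lower, whereas the rest of the gene total was 0.257 and 0.256. Only 1.09% of all genes had a lower log2 ratio of the total. The 1 element listed with IFN-γ alone, 961 kb downstream, had a score of 0.0212. The promoter percentile was 66.9 and 69.3.

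*Gpr37l1* encodes the closest relative of GPR37, known mainly from astrocytes and also found in OPCs. Its leading element lay between genes, 1.03 kb past its 3′ end, at chr1:135158705-135159204. This was the strongest of all elements listed for it, with an activity of 5.87 in Ctr-OPCs and 5.28 with IFN-γ. Its adjusted contact was 0.0245 and 0.0351 and its score 0.0818 and 0.119, so the score was higher with IFN-γ while the activity was slightly lower. The element was listed for 10 other genes in Ctr-OPCs and 8 with IFN-γ, and the antisense gene *Gm15445* shared 6 elements with *Gpr37l1* over both tables.

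The other connection of *Gpr37l1* was a different element in each group. In Ctr-OPCs it was an intronic element at chr1:135162624-135163123 with a score of 0.0670, for which no overlapping element was listed with IFN-γ. In IFN-γ-OPCs it was an element 2.14 kb upstream of the TSS, at chr1:135169363-135170287, with a score of 0.0503. An element in *Arl8a*, a gene for a lysosomal GTPase, hardly differed, with an activity of 1.95 and 1.91 and a score of 0.0328 and 0.0348. An element of 1008 bp in an *Arl8a* intron, listed for *Gpr37l1* in Ctr-OPCs alone with a score of 0.0233, had an activity of 1.92, where IFN-γ-OPCs had 2 elements of 500 bp with 0.839 and 1.07. The total was 1.75 in Ctr-OPCs and 1.55 with IFN-γ, and the neighbours *Gm15445* and *Arl8a* had the same log2 ratio of -0.17.

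*Adgrg1*, also known as *Gpr56*, encodes an adhesion receptor for matrix proteins that keeps OPCs dividing. It was listed in IFN-γ-OPCs only, with a promoter percentile of 62.3, a total of 1.3 and 8 elements that summed to 32.4% of that total. Of the 8, 5 lay in the gene itself. The highest scores were 0.0662, for an element at chr8:94983988-94984487 that reaches into an exon (activity 3.31), and 0.0511, for an intronic element at chr8:94986652-94987151 (activity 2.78). A further 2 elements, 18.1 and 19.5 kb downstream, had scores of 0.0479 and 0.0438, just under the cut-off.

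The absence of *Adgrg1* from the Ctr-OPC table was not an absence of its elements. Of the 8, 7 overlapped a Ctr-OPC element that was listed there for other genes. The element with the highest score had an activity of 2.91 in Ctr-OPCs, against 3.31 with IFN-γ, and the intronic one had 2.60 against 2.78. Over the 7, the log2 ratios of activity ran from -0.16 to 0.70, the highest for an element of 949 bp with IFN-γ. The neighbouring gene model *Gm10286* shared 7 elements with *Adgrg1* and had a total of 1.55 in Ctr-OPCs and 1.31 with IFN-γ. Which of the tables' limits *Adgrg1* missed in Ctr-OPCs was not tested, so the gain from 0 to 2 connections is a gain of listing.

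*S1pr1* encodes the main receptor for sphingosine 1-phosphate on many cells, a lipid that guides migration and survival. Its near element lay in its own small gene, at chr3:115712762-115713892, and reached from its intron into coding sequence. This element had an activity of 1.53 in Ctr-OPCs and 0.963 with IFN-γ, an adjusted contact of 0.0425 and 0.0288 and a score of 0.113 and 0.0602. As in *Gpr37*, the element nearest the promoter was lower in both activity and contact with IFN-γ. Its length was 1131 bp and 933 bp. A lincRNA gene that starts beside it, *Gm9889*, had all 11 elements in common with *S1pr1* and the same total, so the pair counts as 1 set of measurements.

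The distal *S1pr1* connection lay 185 kb upstream in *Dph5*, the gene of an enzyme of diphthamide synthesis. In Ctr-OPCs there were 2 elements of 500 bp there, at chr3:115899426-115899925 with a score of 0.0404 and at chr3:115899963-115900462 with 0.0482, each under the cut-off. In IFN-γ-OPCs there was 1 element of 911 bp with a score of 0.102. The Ctr-OPC scores summed to 0.0886 and their activities to 6.23, against an activity of 5.29 with IFN-γ, so the added connection came with a joined element. Activity times contact summed to 0.0509 in Ctr-OPCs and was 0.0472 with IFN-γ. The score of the region was thus higher, while its input was lower and the gene total was lower too. At 254 kb, in an intron of the zinc transporter gene *Slc30a7*, activity was 1.69 and 2.62 while adjusted contact was 0.00730 and 0.00411, and the score hardly moved, from 0.0215 to 0.0233. The total of *S1pr1* was 0.575 in Ctr-OPCs and 0.461 with IFN-γ, and that of *Dph5* 0.562 and 0.563.

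*Lpar1*, whose product binds lysophosphatidic acid, had the fewest elements. The Ctr-OPC table listed an intronic element at chr4:58545608-58546107 with an activity of 0.313 and a score of 0.0259. It also listed an element in *Ecpas*, 358 kb upstream, with a score of 0.0230. The IFN-γ-OPC table listed only an element in an intron of *Svep1*, 503 kb downstream, with a score of 0.0218 and 2.17 times the contact expected for the distance. None of the 3 was near the cut-off, and none was listed for *Lpar1* in both tables. The *Ecpas* element overlapped an IFN-γ-OPC element of 598 bp with an activity of 2.20, against 1.58 in Ctr-OPCs, that was listed there for *Ecpas* and *Zkscan16*. The total was 0.470 and 0.464, and the listed elements made up 4.89% and 2.18% of it. What made up the rest is not in the tables.

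*P2ry1* encodes a receptor for ADP that raises calcium in OPCs. It had the lowest total of the receptors, 0.305 in Ctr-OPCs and 0.317 with IFN-γ, and all 5 of its Ctr-OPC elements lay 211 to 475 kb away. Its connection was an element at chr3:60527683-60528182 in *Mbnl1*, a splicing factor gene 475 kb upstream, with an activity of 4.29, 1.60 times the contact expected for the distance and a score of 0.0703. With the power-law score it had 0.0214 and was no connection, so *P2ry1* then had no connection in either group. With IFN-γ the same element had an activity of 3.52 and was listed for 8 other genes, but not for *P2ry1*. If the score limit of 0.02 is what kept it out, its adjusted contact with *P2ry1* was at most 0.00180 with IFN-γ, against 0.00499 in Ctr-OPCs, at least 2.77-fold lower. That bound has no replicate check.

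The other *P2ry1* elements were weak or shared. In Ctr-OPCs a second *Mbnl1* element scored 0.0269, and 2 elements in the lincRNA gene *Gm38326* scored 0.0319 and 0.0343. The second of these had an activity of 1.33, against 0.604 in the overlapping element with IFN-γ, with lengths of 971 and 500 bp. An element in *Rap2b* scored 0.0241 with no contact at all, so this score rested on its activity of 5.97 and the model's pseudocount. In IFN-γ-OPCs the listed elements lay 47.6 kb downstream, with a score of 0.0290, and 1160 kb downstream, with 0.0245. No *P2ry1* pair was common to both tables. The antisense gene *Gm37035*, which overlaps its start, had the same elements and totals, so the pair is also 1 set of measurements.

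*Ednrb* encodes the endothelin B receptor, which acts on OPC migration and differentiation. Its strongest element lay 66.2 kb downstream of the TSS, 36.2 kb beyond the gene's end, at chr14:103777949-103778448. The activity was 3.51 in Ctr-OPCs and 3.69 with IFN-γ, the adjusted contact 0.00890 and 0.0132 and the score 0.0494 and 0.0886. Activity was nearly level, then, and contact with IFN-γ was 1.48 times that in Ctr-OPCs. Activity times contact was 0.0312 in Ctr-OPCs and 0.0488 with IFN-γ. The score also divides by the gene total, which was lower with IFN-γ, 0.550 against 0.632. A neighbour at chr14:103778511-103779010 had an activity of 2.91 and a score of 0.0410 in Ctr-OPCs, and no overlapping element was listed with IFN-γ for any gene. Counted together, the 2 Ctr-OPC elements summed to 0.0904, against 0.0886 for the 1 element with IFN-γ.

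A further 3 *Ednrb* elements were listed in both tables. At 5.89 kb upstream, activity was 0.545 in Ctr-OPCs and 0.632 with IFN-γ, but adjusted contact was 0.0342 and 0.0180 and the score 0.0295 and 0.0207. The element 54.9 kb upstream scored 0.0257 and 0.0296, and that 125 kb downstream 0.0264 and 0.0222. In these 3 the contact was lower with IFN-γ, unlike at the leading element. IFN-γ-OPCs also listed an element 80.2 kb downstream (0.0271) and an intronic one (0.0214). Of the 5 *Ednrb* elements in Ctr-OPCs, 4 thus had a match, as had all 3 of *Gpr37*.

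*Gpr17*, on chromosome 18 within the *Lims2* gene, encodes a receptor that marks committed precursors and blocks their last step to myelination. Its leading element, 4.17 kb upstream of the TSS in an intron of *Lims2*, had an activity of 4.56 in Ctr-OPCs and 3.47 with IFN-γ. The adjusted contact was 0.0242 and 0.0407, and the score 0.0997 and 0.124. Activity was lower and contact higher with IFN-γ, and the product was 0.110 and 0.141. The element that covers part of the *Gpr17* transcript, 6.11 kb downstream, had an activity of 1.5 and 1.2, an adjusted contact of 0.0579 and 0.0461 and a score of 0.0787 and 0.0485.

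That last value, just under 0.05, was the lost *Gpr17* connection. The Ctr-OPC element of 970 bp also overlapped a second IFN-γ-OPC element, of 500 bp, with an activity of 0.636 and a score of 0.0258. With the neighbouring elements joined, 3 in Ctr-OPCs and 2 with IFN-γ, the sum was 0.138 and 0.0743, so the region was lower but above 0.05 in both. IFN-γ-OPCs further listed an element at *Sft2d3*, 38.7 kb downstream, with a score of 0.0427 and an activity of 3.68. The overlapping Ctr-OPC element, shorter at 500 bp against 683 bp, had an activity of 2.42 and was not listed for *Gpr17*. The total of *Gpr17* was 1.10 and 1.14 and its listed elements made up 23.8% and 24.1%. Of its 8 elements over both tables, 4 were also listed for *Myo7b*, 4 for *Iws1* and 4 for *Lims2*.

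Across the 14 receptor pairs that could be matched between the tables, in 5 genes, contact differed as much as activity. Both rest partly on H3K27ac, so they are not independent measures. Activity was higher in 5 and lower in 9 with IFN-γ, with 2 past 1.5-fold upwards and 3 downwards, against 7.48% and 11.0% of all 29858 matched pairs. Adjusted contact was also higher in 5 and lower in 9, and 6 of the 14 were past 1.5-fold in either direction, against 20.3% of all matched pairs. The 2 near elements of *Gpr37* share 1 contact value, so these are 13 contact measurements, 5 higher and 8 lower, with 5 past 1.5-fold. The median log2 ratio was -0.11 for activity, against -0.09 over all pairs (SD 0.47 across pairs), and -0.31 for contact, against 0.05 (SD 0.50). The median activity of the whole IFN-γ-OPC table was -0.11 on the log2 scale relative to that of Ctr-OPCs, and relative to it the receptor median was 0.00. Relative to it, 7 of the 14 were higher and 7 lower, and 2 were past 1.5-fold upwards and 1 downwards (all matched pairs, 10.3% and 7.82%), so the downward calls of the intronic *Gpr37* element and of the near *S1pr1* element were lost. Without that rescaling, both upward calls of activity were *S1pr1* elements, of which 1 was the joined element at *Dph5*, and the 3 downward calls were the near elements of *Gpr37* and *S1pr1*. *Lpar1*, *P2ry1* and *Adgrg1* had no matched pair.

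**Figure D4:**
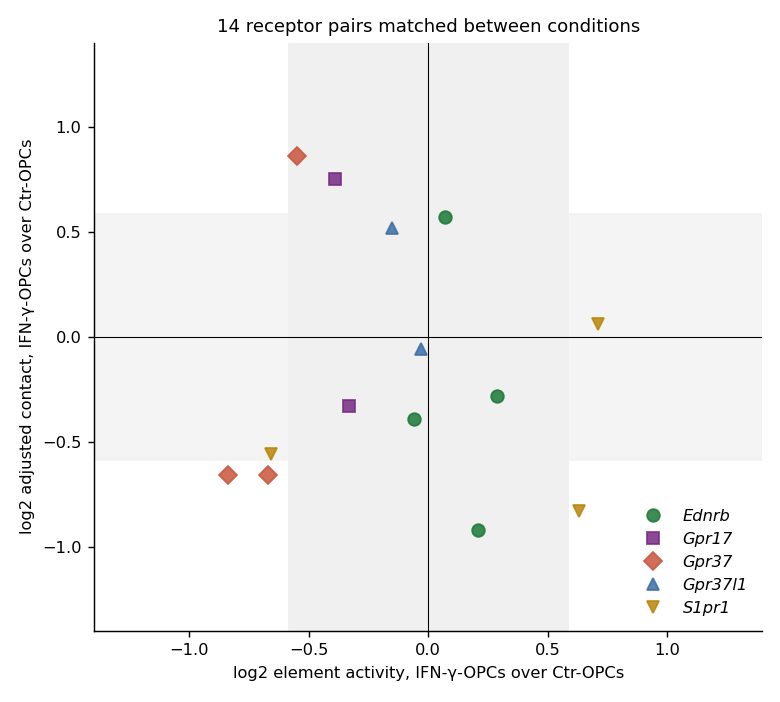
Log2 ratio of element activity (x axis) against log2 ratio of adjusted contact (y axis), IFN-γ-OPCs over Ctr-OPCs, for the 14 matched pairs, with a symbol for each of the 5 genes; grey bands mark changes within 1.5-fold. The 2 near elements of *Gpr37* and the near element of *S1pr1* lie in the lower left, with both values lower in IFN-γ-OPCs.

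Most other receptors and most genes of receptor ligands and signalling had totals within 1.5-fold between the groups. Over all genes 64.3% were lower with IFN-γ, which is the measure for the counts of lower totals given here, and 0.615% were past 1.5-fold upwards and 0.118% downwards. The counts cover the genes of each list with a total in both tables. Of 41 other receptors, 31 had a total in both tables, 13 higher and 18 lower with IFN-γ, none past 1.5-fold, with a median log2 ratio of -0.08. The highest was *P2ry12*, an ADP receptor that is also a microglia marker, at 0.51, and the lowest *Lpar4*, a lysophosphatidic acid receptor, at -0.38. Of 23 ligands and enzymes of ligand metabolism, 17 had a total in both tables, of which 4 were higher and 13 lower, none past 1.5-fold, from *Plpp1*, a lipid phosphate phosphatase, at 0.46 to *Sphk2*, a sphingosine kinase, at -0.24.

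Of 24 G protein subunits, 19 had such a total, of which 6 were higher and 13 lower, with 1 past 1.5-fold, the γ subunit gene *Gng11* at 0.59, and with the α subunit gene *Gna11* lowest at -0.32. Of 25 receptor regulators, 16 had one, of which 7 were higher and 9 lower, with *Rgs20*, a gene for a regulator of G protein signalling, past 1.5-fold at 0.59 and the receptor kinase gene *Grk2* lowest at -0.31. Of 30 effectors, 22 had one, of which 6 were higher and 16 lower, none past 1.5-fold, from the phosphodiesterase gene *Pde4d* at 0.25 to the adenylate cyclase gene *Adcy1* at -0.34. *Gng11* and *Rgs20* were thus the 2 genes past 1.5-fold in these lists, both just over the limit, and neither gained a connection: *Gng11* had 1 and 1 and *Rgs20* 4 and 3.

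**Figure D5:**
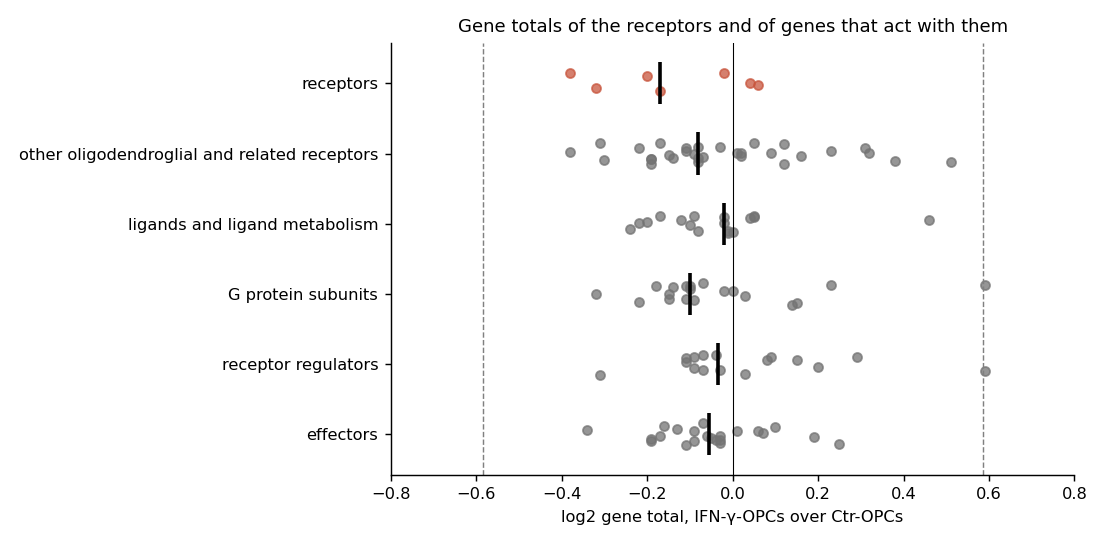
Log2 ratio of gene totals (x axis), IFN-γ-OPCs over Ctr-OPCs, for the 7 receptors with a total in both tables (red) and 5 lists (grey). The lists hold other receptors and genes of receptor ligands and signalling. Each gene is 1 point, a black bar marks each median and dashed lines mark 1.5-fold. Most points lie between the dashed lines, and every median is below 0.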

How the data were processed

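Cultured OPCs were profiled by H3K27ac-HiChIP in 6 libraries, 3 per condition. Per the study's methods and the submitters' processing notes, HiC-Pro was used to align reads to mm10 and remove duplicates. Bulk ATAC-seq and H3K27ac CUT&RUN supplied the activity of the ABC model, HiChIP its contact, and defaults set the candidate elements. The labels give 1 table to the 3 libraries of a condition. The activity of an element is a signal computed by the authors from the accessibility and H3K27ac reads within it. The ABC score is deposited as a fraction of the gene total, and the promoter quantile is a score between 0 and 1 within its table. Adjusted contact is contact plus a pseudocount of 0.001229. Less was added at the *P2ry1* element 1160 kb away, with a contact of 0.00567 and an adjusted contact of 0.00676. Contact, adjusted contact, their product with activity and the power-law value are deposited as score values on no fixed scale. Any scaling of these values between the conditions is not given in the sources used here. A longer element can collect more signal, and element ends differ between the tables.

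The gene total was computed as the product of activity and adjusted contact divided by the score. Pairs were matched when their elements overlapped by at least 1 bp and each was the best match of the other. A value was called past 1.5-fold. GENCODE M21 (GRCm38) gave symbols and gene models, GRCm38.p6 the sequences, and positions are 1-based. Receptors, partner lists and markers were chosen with earlier results of these data known. The text names the 8 receptors, the gene with the highest and lowest log2 total of each partner list, up to 2 genes that share most elements with a receptor, and its leading elements and those whose activity differed over 2-fold; other elements and neighbours named were chosen after their values were seen. The matching and the totals were checked on simulated data without noise. Alternatives were the score cut-off, a power-law score, scaling by each table's median, listed pairs only, 50% reciprocal overlap and joined elements. Python 3.11.15, pandas 2.3.3, NumPy 2.4.6, matplotlib 3.10.9 and pysam 0.24.0 were used.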

Additional observations from a re-analysis of the deposited data

How the results depend on the processing

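No paired analysis was possible because the 3 libraries of a condition share 1 pooled table, and no library could be left out for the same reason. Taking all deposited pairs gave 30 pairs in Ctr-OPCs and 33 with IFN-γ in place of 8 and 11 connections, and a cut-off of 0.1 gave 3 and 4. The number of receptor genes whose connections differed, 6, was 3 at the cut-off of 0.1, 2 with the power-law score and 3 after joining neighbouring elements. The sign of that difference turned for *Gpr17* (1 at 0.1, against -1), *Gpr37* (-1 at 0.1, against 1) and *S1pr1* (-3 over all deposited pairs, against 1). The median log2 ratio of activity, -0.11, was 0.00 after scaling by each table's median and -0.39 over pairs above 0.05 in at least 1 condition. The median log2 ratio of totals, -0.17, was -0.74 with listed pairs only. In single genes the log2 ratio had the other sign for *Lpar1* with table scaling (0.03). With listed pairs only it was -1.75 for *P2ry1* and 0.09 for *Ednrb*, but that setting sums different elements in each table (for *P2ry1*, 5 and 2 with none in common), so it is no measure of the same total. For the remaining shifts the cause was not tested. The shares of connections in common, 62.5% and 45.5%, were 33.3% and 25.0% at the cut-off of 0.1, of 3 and 4 connections. Of 46 values of single genes under an alternative, 22 were the same (the same sign of the difference in connections, or a log2 total within 0.1), 18 were not and 6 had the opposite sign. *P2ry1* had no difference in connections at the cut-off of 0.1 or with the power-law score, and *Gpr37*, *S1pr1* and *Gpr17* had none with the latter. Scores at the edge of 0.05, such as 0.0503 and 0.0485, decide counts in single genes, and the depth that would give their error is unknown.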
